A study of Mus musculus with 120 samples.

Results

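The genes described here mark the macrophages of the liver. They are *Cd68*, *Adgre1*, *Clec4f*, *Timd4*, *Cd5l*, *Marco*, *Vsig4*, *C1qa*, *Csf1r* and *Lyz2*, 10 of the 18193 genes that a probe set of the arrays names by a single symbol. Every probe set whose platform annotation gives one of these symbols and no other was taken, which made 13 of 45037 probe sets. Of these, 11 are on the MOE430A array, and the *Timd4* probe set and a second one for *Marco* are on MOE430B. *Csf1r* has 3 probe sets and *Marco* 2, and for a gene with several the one with the highest mean level on MOE430A led, while the others are reported beside it. No probe set carried a member's symbol together with another.

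Livers came from 60 (C57BL/6J × BTBR) F2-*ob/ob* mice, 31 females and 29 males, that were 14 weeks old and had fasted for 4 h. Every mouse lacked functional leptin through the *ob* mutation, no lean mouse was among them, and the 60 had been picked from a larger F2 for their genetic dissimilarity. The RNA of each mouse was read on 1 MOE430A and 1 MOE430B array. Without repeat arrays, the spread of a transcript holds differences between mice and those of the measurement, which cannot be told apart. Genotypes at 194 autosomal markers and plasma glucose, insulin and triglyceride, body weight and liver triglyceride of the same mice allow the levels to be set against sex, genotype and phenotype. The plasma values and body weights were taken at 8 and 10 weeks, earlier than the livers. Which founder strain the genotype letters A and B stand for was not known, and genotypes are named by letter.

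Kupffer cells are the resident macrophages of the liver. They sit in the sinusoids, clear bacteria, dying cells and old red cells from portal blood, and depend on signalling through the CSF1 receptor. Some of their genes, such as *Cd68* and *Adgre1*, are shared by macrophages of most tissues, and others, such as *Clec4f* and *Timd4*, are largely kept to the resident population. Recruited monocyte-derived macrophages carry the first kind and gain the second only as they settle. Because whole liver was measured, fewer macrophages and less RNA per macrophage cannot be told apart.

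In 6 mice (111, 167, 200, 474, 484 and 559) an array correlated less with the others of its type than the rest did, and results are also given for the other 54. Mice 559 and 111 were among the 3 mice with the highest macrophage levels, and the other 4 lay inside the range of the remaining mice. The first principal component held 20.4% of the variance on MOE430A and 16.5% on MOE430B. The mean macrophage profile defined below correlated weakly with it, at *r* = 0.10 and -0.11.

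Promoter sequences were found in RefSeq (build GRCm38.p6) for 7 of the 10 genes, each covering 250 bases before the start site and 50 after it. Those of *Cd5l* and *Marco* are shown because these genes lie at opposite ends of the correlation results below and because both hold the letters GAGGAAG, a core bound by PU.1, the factor that macrophages need to form. The capitals mark these letters or their reverse complement CTTCCTC. They lie 67 to 61 bases before the start in *Cd5l* (chr3:87357631-87357930, + strand) and 146 to 140 bases before it in *Marco* (chr1:120504975-120505274, - strand).
Cd5l: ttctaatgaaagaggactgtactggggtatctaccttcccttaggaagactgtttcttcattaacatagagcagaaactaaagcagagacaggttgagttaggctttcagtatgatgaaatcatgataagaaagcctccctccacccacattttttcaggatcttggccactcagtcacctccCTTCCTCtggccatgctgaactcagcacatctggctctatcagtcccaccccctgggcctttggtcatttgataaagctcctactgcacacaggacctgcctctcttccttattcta
Marco: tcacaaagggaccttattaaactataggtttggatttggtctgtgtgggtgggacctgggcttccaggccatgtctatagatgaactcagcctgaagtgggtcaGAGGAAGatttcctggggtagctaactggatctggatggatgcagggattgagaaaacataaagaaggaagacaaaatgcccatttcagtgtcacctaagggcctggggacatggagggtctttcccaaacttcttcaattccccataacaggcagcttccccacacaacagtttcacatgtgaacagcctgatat
Read on both strands, these letters were in 2 of the 7 member promoters and in 13.5% of 27025 promoters of this length. The AP-1 letters TGAGTCA were in 1 of the 7 (*Cd68*) and in 5.17% of all, and the MAF letters TGCTGAC in 1 of the 7 (*Timd4*) and in 4.58% of all. The E-box CACGTG was in 0 of the 7 and in 7.24% of all. A match describes the sequence only.

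*Cd68* encodes a glycoprotein of the macrophage lysosome. Its log2 level ran from 6.45 in mouse 100 over a median of 7.0 to 7.95 in mouse 559, a 2.83-fold range. *Adgre1*, which encodes the F4/80 antigen, ran from 7.38 over 7.77 to 8.32, and mouse 559 was again highest. The *Adgre1* SD of 0.169 was the lowest among the leads, though above the median of 0.123 over all probe sets. *Csf1r*, the receptor through which CSF1 and IL-34 sustain macrophages, had levels of 9.75, 10.48 and 11.85 (lowest, median, highest) on its lead probe set. The other *Csf1r* probe sets followed it with *r* = 0.92 and 0.78, and all 3 were highest in mouse 559. *Lyz2*, the lysozyme of myeloid cells, ran from 7.63 over 8.02 to 9.40 in mouse 22. *C1qa*, a chain of the complement component C1q that Kupffer cells secrete, ran from 7.76 over 8.77 to 10.20, a 5.43-fold range that was 3.71-fold without the 6 mice. Its SD of 0.464 was above that of 97.9% of the MOE430A probe sets.

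Of the other members, *Clec4f*, a galactose-binding lectin, ran from 7.66 in mouse 100 over 8.18 to 9.28 in mouse 559. *Timd4*, a receptor for phosphatidylserine on dying cells, had log2 levels of 5.72, 6.10 and 6.65 (lowest, median, highest). *Vsig4*, a complement receptor that catches bacteria from the blood, had levels of 7.32, 7.88 and 8.80. *Cd5l*, a secreted protein made under control of the liver X receptor, had the largest SD of the members, 0.482, and ran from 7.91 over 8.59 to 9.90, a 3.97-fold range. *Timd4*, *Vsig4* and *Cd5l* were all highest in mouse 440. *Marco*, a scavenger receptor for bacteria and particles, behaved differently. Its median was 6.31 and its 10th to 90th percentiles were only 1.30-fold apart, but mouse 22 stood at 7.50 and mouse 111 at 7.40, above all others.

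To compare mice, each lead probe set was rescaled to a mean of 0 and an SD of 1, and the 10 were averaged into a macrophage profile. The profile ran from -1.23 SD in mouse 100 to 2.41 SD in mouse 559, with a median of -0.14. In mouse 559 all 10 genes were among the 10 highest values of the 60 mice, in mouse 440 9 were, in mouse 22 8 were and in mouse 111 7 were. In mouse 100, at the other end, 8 of the 10 genes were among the 10 lowest and 0 among the 10 highest. The profile was skewed, with 6 mice above 1 SD and the highest mice farther from the median than the lowest. Without the 6 mice it reached 1.97 SD, in mouse 22.

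**Figure D1:**
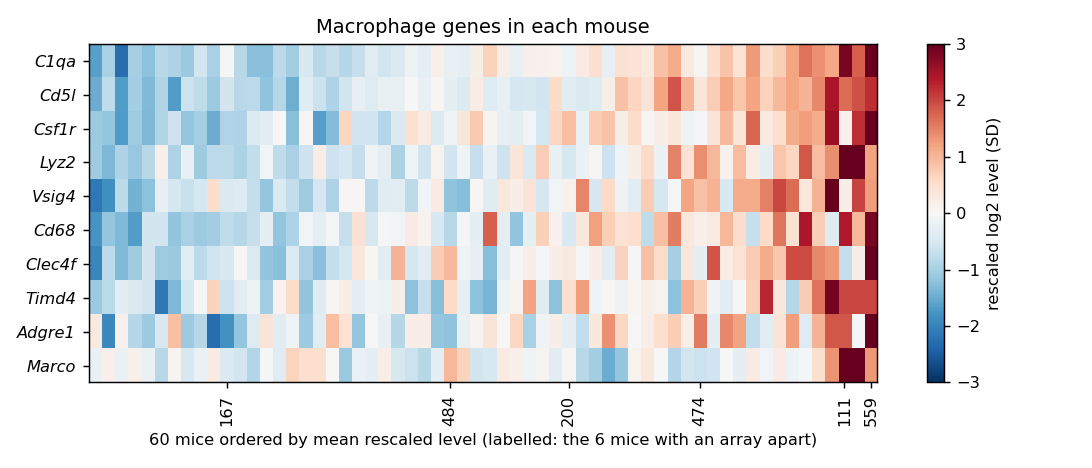
Rescaled log2 levels of the 10 lead probe sets (rows) in the 60 mice (columns), ordered from left to right by the macrophage profile; colours run from low (blue) to high (red), values farther than 3 SD from the mean take the end colour, and the labelled columns are the 6 mice with an array apart. In the mice at both ends of the order the rows from *C1qa* to *Clec4f* mostly share one colour, and many columns between these ends are mixed. *Marco* is high mainly in mice 22 and 111.

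The macrophage genes varied together across the mice. All 45 pairs of lead probe sets had a positive *r*, from 0.13 for *Clec4f* with *Marco* to 0.89 for *C1qa* with *Cd5l*, with a mean of 0.53 (jackknife SE 0.0562 over mice). Of the 45 pairs, 7 had an *r* of 0.7 or greater and 30 passed limma at an adjusted p under 0.05 in both directions of the fit, adjusted over all probe sets for each lead. Over all probe sets set against the 10 leads, 0.0397% had an *r* of 0.7 or greater and 0.811% passed limma with a positive slope. The first principal component of the 10 genes held 59.2% of their variance. The relations did not rest on the 6 mice, without which the mean *r* was 0.48 and 8 pairs reached 0.7. They were present in females (mean *r* 0.49) and in males (0.56), and the difference between the sexes was not tested.

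*C1qa* and *Cd5l* were the centre of the group. Between them *r* was 0.89 and Spearman's rho 0.90 (permutation p 1e-05 for each, the smallest that 100000 permutations can give). Without the 2 mice with the most extreme *Cd5l* levels *r* stayed at 0.89. *C1qa* correlated with the profile of the other 9 genes at *r* = 0.91, *Cd5l* at 0.89, *Csf1r* at 0.80 and *Lyz2* at 0.79. *Cd5l* with *Csf1r* reached *r* = 0.81 (rho 0.80), *C1qa* with *Cd68* 0.80 (rho 0.76), *C1qa* with *Csf1r* 0.79 (rho 0.79), *C1qa* with *Lyz2* 0.77 (rho 0.75), *Cd5l* with *Lyz2* 0.75 (rho 0.73) and *Cd5l* with *Vsig4* 0.70 (rho 0.68). For each of these pairs the permutation p was 1e-05 for *r* and for rho. C1q and CD5L are both proteins that macrophages secrete, and their genes lie on Chromosomes 4 and 3.

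The pairs were also taken by the role of the genes, as a description. Among *Cd68*, *Adgre1*, *Csf1r*, *Lyz2* and *C1qa* the mean *r* of 10 pairs was 0.63. Among *Clec4f*, *Timd4*, *Vsig4*, *Cd5l* and *Marco* it was 0.49, and over the 25 pairs between these groups it was 0.51. In the second group the pairs with *Marco* ran from 0.13 to 0.52 and those without it from 0.51 to 0.70. The lower mean of that group thus rested on *Marco*. *Clec4f* correlated with *Cd5l* at *r* = 0.67 (rho 0.71) and with *Vsig4* at 0.61 (rho 0.61), each with a permutation p of 1e-05. *Timd4*, read on the other array type, correlated with *Vsig4* at *r* = 0.62 (rho 0.55, limma adjusted p 0.00213) and with *Clec4f* at 0.51 (rho 0.51, adjusted p 0.0306). *Adgre1* was looser, with its highest *r*, 0.57, to *Csf1r*. *Adgre1* with *Clec4f* gave 0.30 (rho 0.11), which did not pass limma (adjusted p 0.251).

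**Figure D2:**
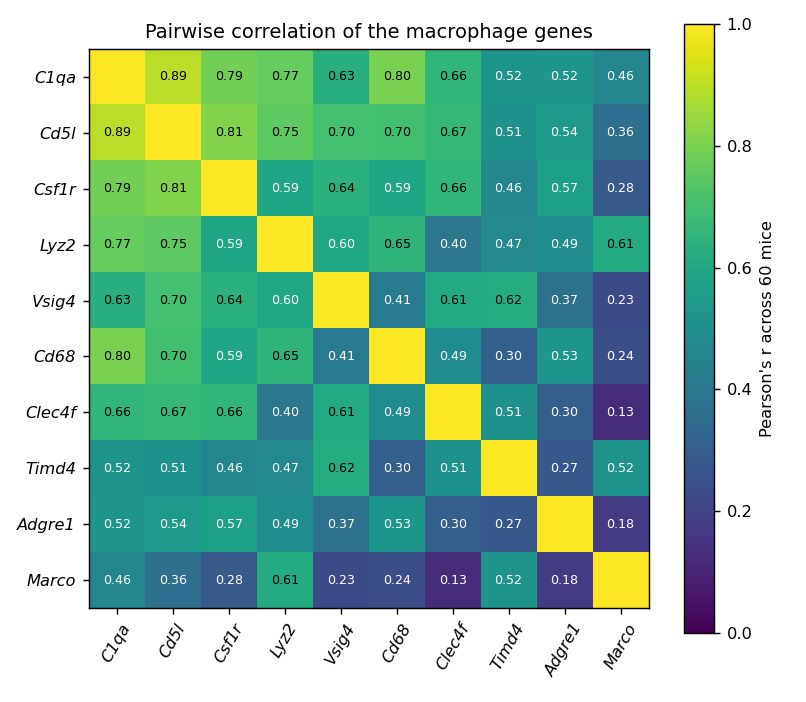
Pearson's *r* across 60 mice for each pair of lead probe sets, with the value in each cell and the colour scale from 0 to 1. Among *C1qa*, *Cd5l*, *Csf1r* and *Lyz2* the values run from 0.59 to 0.89, and in the *Marco* row from 0.13 to 0.61.

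*Marco* had the lowest mean *r* with the other genes, and its highest values rested on mice 22 and 111. With *Lyz2* it reached *r* = 0.61 (permutation p 7e-05) but rho was 0.16 (p 0.234), and *r* without these mice was 0.15. With *C1qa*, *r* fell from 0.46 to 0.21 without them. Over the other 9 genes, the mean rho of *Marco* was 0.10, and its mean *r* without the mice was 0.17. *Timd4* kept the highest *r* with *Marco* after they were left out, at 0.40 (0.52 with them), and with *Clec4f* *r* rose from 0.13 to 0.30. The MOE430B probe set of *Marco* was also highest in mouse 22, and the *Marco* probe sets agreed at *r* = 0.62 (rho 0.28), or 0.32 without the mice. Both mice were high in *C1qa* and *Cd5l* as well, and leaving them out was chosen after the values were seen. Over the 9 genes other than *Marco*, the mean pairwise *r* was 0.58 and the mean rho 0.54.

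**Figure D3:**
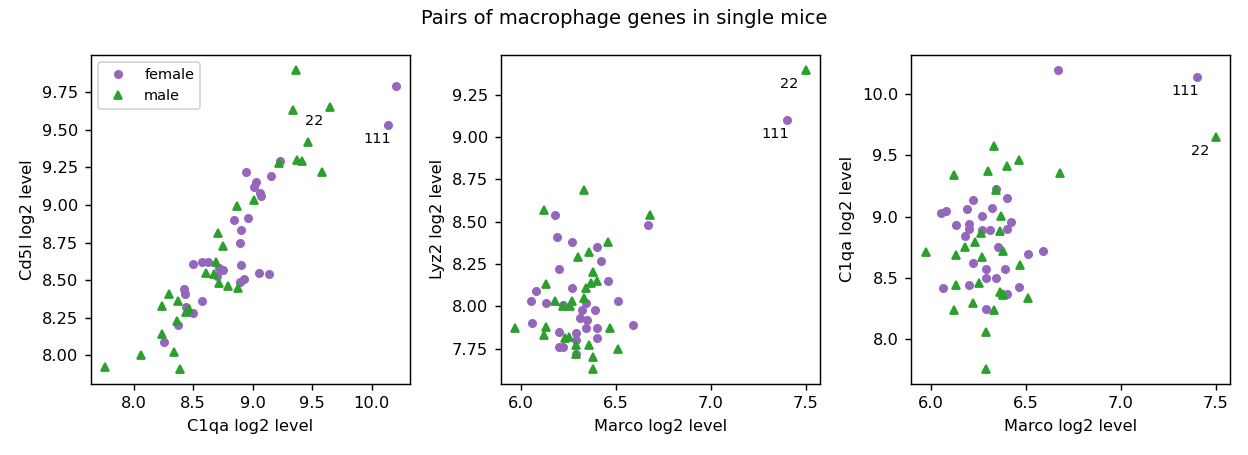
Log2 levels of pairs of macrophage genes in single mice (circles, 31 females; triangles, 29 males), with mice 22 and 111 labelled. *C1qa* and *Cd5l* rise together over the whole range (*r* = 0.89), whereas *Marco* lies under 6.7 in all mice but 22 and 111, so that its *r* with *Lyz2* fell from 0.61 to 0.15 without them.

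Likeness to the macrophage profile was described by *r* over the 60 mice, among probe sets with a single symbol. Of the 15 genes with the highest *r*, 4 were in the list of further macrophage genes (*C1qc*, *C1qb*, *Tyrobp* and *Fcer1g*). *C1qc* (*r* = 0.92) and *C1qb* (0.86) encode the other chains of C1q, and *Cfp* (0.86) encodes properdin, which stabilises the alternative complement pathway. *Tyrobp* (0.84) and *Fcer1g* (0.84) are signalling adaptors of myeloid receptors. *Cd74* (0.79), *H2-Ab1* (0.78) and *H2-Eb1* (0.77) serve antigen presentation on MHC class II, and *Cyba* (0.78) is a subunit of the phagocyte NADPH oxidase. *Itgal* (0.84), an integrin chain of leukocytes, and *Cd44* (0.82), a hyaluronan receptor, were read on MOE430B, although 9 of the 10 leads are on MOE430A. *Tmsb4x* (0.81), *Lyz1* (0.80), *Fermt3* (0.78) and *Ctla2b* (0.77) completed the 15 highest. Without the 6 mice these 15 ranged from 0.68 to 0.91.

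At the other end, among probe sets with a single symbol, the lowest *r* belonged to *Gsta2* (-0.60), a glutathione transferase, followed by *Tpgs2* (-0.57), *Cyp2c54* (-0.55), a cytochrome P450, *Vps9d1* (-0.52) and *Odc1* (-0.51), the first enzyme of polyamine synthesis. *Gsta2* stood at -0.73 without the 6 mice. Over all non-member probe sets the median *r* was -0.03, and 0.0933% had an *r* of 0.7 or greater.

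The single transcript closest to a member was often a C1q chain. *C1qc* was the closest non-member for *C1qa* (*r* = 0.94), *Cd5l* (0.88) and *Clec4f* (0.66). *Cyba* was closest to *Cd68* (0.87), *Tyrobp* to *Csf1r* (0.78), *Ctss*, the cathepsin of antigen-presenting cells, to *Vsig4* (0.68), *Adcy7* to *Adgre1* (0.71) and *Rac2* to *Timd4* (0.59). *Lyz1* was closest to *Lyz2* (0.94), but these genes are near-identical copies whose probes may read both transcripts, and they cannot be told apart here. *Shisa5* led for *Marco* at *r* = 0.68, with a rho of 0.19.

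Lists of genes by cell type and pathway were set beside the profile by their median *r*. Of 28 further Kupffer and tissue macrophage genes, 26 were measured by 45 probe sets, with a median *r* of 0.30 against -0.03 over all probe sets. In this list 10 genes had a probe set at 0.7 or greater, among them *Cybb* (0.77), the other NADPH oxidase subunit, *Mpeg1* (0.76), a pore-forming protein of phagocytes, and *Fcgr3* (0.71), an IgG receptor. *Clec1b* (0.52) and *Folr2* (0.52) were lower. *Cd163*, the receptor for haemoglobin and haptoglobin, stood at 0.28, and *Siglec1*, a sialic acid receptor, had no probe set above 0. These genes, like others named below outside the rule given for names, were picked after their values were seen. Probe sets of one gene could disagree, as for *Laptm5*, which ranged from -0.37 to 0.76.

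Of the macrophage transcription factors, *Spi1*, which encodes PU.1, had an *r* of 0.68 and *Irf8* 0.67, followed by *Zeb2* at 0.48, while the 32 probe sets of that list had a median of 0.12 and a lowest value of -0.25 (*Mitf*). The list of CSF1 receptor ligands and signalling genes, with a median of 0.14 over 24 probe sets, also held genes of other cytokine receptors. One of these, *Csf2rb*, was its highest at 0.67. Genes of recruited macrophages and monocytes had a median of 0.12, with *Plac8* at 0.695, *Lgals3* at 0.63 and *Chil3* at 0.54. Inflammatory cytokines and chemokines had a median of -0.02, with *Cxcl10*, an interferon-induced chemokine, highest at 0.58 and *Il10* lowest at -0.22. Lysosome genes had a median of 0.16 and were led by *Npc2* (0.54). LXR target genes had a median of 0.11 and were led by *Abcg1* (0.45).

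Of the markers of other cell types, those of neutrophils, stellate cells and sinusoidal endothelium had the highest medians. The 9 neutrophil probe sets, for 8 of 10 genes, had a median *r* of 0.35 and a range of -0.14 to 0.62, led by *S100a8* (0.62) and *S100a9* (0.61). The summed log2 level of these 9 probe sets ran from 64.7 over a median of 66.8 to 81.2 and correlated with the profile at *r* = 0.56, and every one of them had a mean level of at least 6.61. Without the 6 mice the neutrophil median *r* was 0.39 and that of the further macrophage genes 0.28. Stellate cell markers had a median of 0.19 (27 probe sets, -0.30 to 0.50) and a summed level of 175.7 to 187.7, whose *r* with the profile was 0.54. Sinusoidal endothelial markers had a median of 0.16 (18 probe sets, -0.22 to 0.52) and a summed level of 129.2 to 136.8, with an *r* of 0.31. The part of these cells in the relations among the macrophage genes was not tested. T cell and NK cell markers (median 0.01), B cell and plasma cell markers (-0.04), dendritic cell markers (0.03), red cell markers (0.02), cholangiocyte markers (-0.02) and cell cycle genes (0.00) lay near the median of all probe sets. Their highest members were *Cd2* (0.22), *Ighm* (0.33), *Itgae* (0.19), *Alas2* (0.29), *Cftr* (0.27) and *Mki67* (0.21), in the same order. Hepatocyte markers had a median of -0.10, with *Cyp2e1* lowest at -0.43, adipocyte markers -0.08 and pancreatic acinar markers -0.15.

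**Figure D4:**
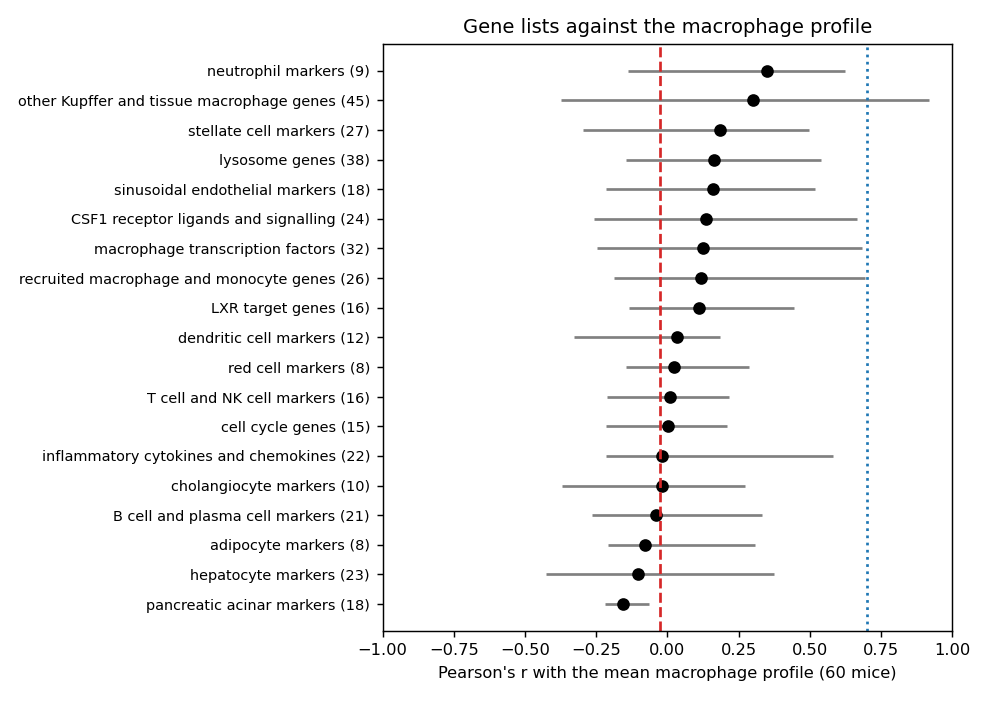
Pearson's *r* with the macrophage profile over 60 mice for the 19 gene lists (number of probe sets in brackets); dots are list medians, grey lines run from the lowest to the highest probe set, the dashed red line is the median of all non-member probe sets (-0.03) and the dotted blue line an *r* of 0.7. Only the list of further Kupffer and tissue macrophage genes holds probe sets past 0.7, while the neutrophil list has the highest median (0.35).

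No macrophage gene passed the test for a difference between the sexes. In limma, 0 of the 13 probe sets passed an adjusted p under 0.05, where 1.45% of all probe sets passed. At an unadjusted p under 0.05 there were 0 of the 13, where 15.98% of all probe sets passed, and by the Wilcoxon test 0 passed and 1 had an unadjusted p under 0.05. The differences between males and females ran from -0.13 for *Cd68* to 0.06 for the lead *Csf1r* probe set on the log2 scale. Of the 95% intervals, the widest bounds were a 0.786-fold and a 1.21-fold level in males. *Timd4* came closest, at 5.86, 6.13 and 6.54 (lowest, median, highest) in 31 females and 5.72, 6.05 and 6.65 in 29 males. Its mean was 6.16 ± 0.164 (SD, n = 31) in females and 6.07 ± 0.20 (SD, n = 29) in males, a difference of -0.08 (95% interval -0.18 to 0.01, limma adjusted p 0.364), and the sexes overlapped over most of the range. *Clec4f* differed by -0.12 (-0.26 to 0.02, adjusted p 0.38).

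Lysosome genes, some of which macrophages express strongly, included several that passed. Of their 38 probe sets 8, for 5 genes, were lower in males and 0 higher. Over all probe sets 1.45% passed, 466 of them lower and 185 higher in males. *Ctsb*, which encodes cathepsin B, was 11.07 ± 0.405 (SD, n = 31) in females and 10.59 ± 0.305 (SD, n = 29) in males on one probe set (limma adjusted p 0.00141). *Npc2*, a cholesterol carrier of the lysosome, was 9.05 ± 0.229 in females and 8.79 ± 0.22 in males (adjusted p 0.0062). *Psap*, *Lipa* and *Atp6v0d2* were the others. Of the 45 probe sets of further macrophage genes, 1 was higher in males (*C6*, a complement component) and 1 lower (*Slc40a1*, the iron exporter ferroportin). Whether these differences were unlike those of the 13 probe sets was not tested.

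No macrophage probe set passed the test for a relation to a deposited phenotype in limma with sex as a term. For each of the 9 phenotypes 0 of 13 passed an adjusted p under 0.05, where 0.0266% of all probe sets passed for insulin at 10 weeks, 0.204% for liver triglyceride and 0% for each of the other 7. At an unadjusted p under 0.05, 5 of the relations (13 probe sets by 9 phenotypes) passed, 1 for insulin at 10 weeks, 2 for plasma triglyceride at 8 weeks and 2 for liver triglyceride. At that level 7.64%, 5.84% and 9.09% of all probe sets passed for these phenotypes. In these fits, with no mouse left out, the members' share was thus not above the background over the 9 phenotypes. The 5 are given as values. Without the 6 mice with an array apart, 0, 4 and 1 of 13 passed at that level for these phenotypes (6.80%, 5.99% and 9.06% of all). There 2 of 13 passed for body weight at 8 weeks and 3 at 10 weeks (3.58% and 6.19% of all). In that setting the members' share was above that of all probe sets for plasma triglyceride at 8 weeks and for body weight at 8 and 10 weeks. The members vary together, so these counts are not independent. The profile correlated with glucose at 10 weeks at *r* = -0.14, with insulin at 10 weeks at 0.16, with body weight at 10 weeks at 0.12 and with liver triglyceride at 0.07. Of the 45 probe sets of further macrophage genes, 0 passed for any phenotype.

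The relation with the highest *r* was that of *Cd68* with insulin. With log10 insulin at 10 weeks it gave *r* = 0.35 (permutation p 0.00759) and rho = 0.31 (p 0.0197) over 57 mice, and *r* = 0.30 without the 2 mice with the most extreme insulin. The limma slope was 0.10 log2 units per SD of log10 insulin (95% interval 0.02 to 0.19, adjusted p 0.533). With liver triglyceride *Cd68* gave *r* = 0.28 (p 0.0288) and rho = 0.30 (p 0.0219) over 59 mice, and an adjusted p of 0.348 in limma. Without the 2 mice with the most extreme liver triglyceride *r* was 0.21. *Marco* ran the other way with liver triglyceride, at *r* = -0.28 (p 0.0245) and rho = -0.25 (p 0.0528), with an adjusted p of 0.487. *Lyz2* with plasma triglyceride at 8 weeks gave *r* = 0.34 (p 0.0146) over 51 mice, but rho was 0.20 (p 0.17). Its *r* fell to 0.14 without the 2 mice with the most extreme plasma triglyceride. The fifth was a second *Csf1r* probe set with plasma triglyceride at 8 weeks (*r* = 0.23, rho = 0.17, adjusted p 0.834). The interaction of sex with each phenotype passed for 0 of 13 probe sets and for 0% of all, with 5 member relations at an unadjusted p under 0.05, at which 3.23% to 8.22% of all probe sets passed over the phenotypes.

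No macrophage gene had a linkage that reached the LOD score of 3.4 used as the threshold, at which 15.8% of all probe sets mapped. The highest LOD scores of the 13 probe sets ran from 1.74 to 2.96, with a median of 2.32 against 2.62 over all probe sets. *Cd5l* led with 2.96 on Chromosome 15 at 10.0 cM. Its log2 levels there were 8.23, 9.10 and 9.65 (lowest, median, highest) in 16 mice homozygous for A, 7.91, 8.62 and 9.90 in 26 heterozygotes and 8.0, 8.47 and 8.99 in 18 mice homozygous for B. The group means fell from 9.03 ± 0.428 (SD, n = 16) to 8.71 ± 0.546 (SD, n = 26) and 8.47 ± 0.224 (SD, n = 18), while the ranges overlapped. Without the 6 mice with an array apart *Cd5l* reached 3.95 on Chromosome 15 at 5.0 cM, past the threshold. The share of all probe sets past 3.4 without these mice is not given here. *Vsig4* also peaked on Chromosome 15, at 15 cM with 1.94, and stayed there under Haley-Knott regression (1.95). Its peak moved to Chromosome 9 without the 6 mice (2.12), without mice 343 and 474 (2.13) and with the first principal components as covariates (2.17). Other members moved to Chromosome 15 without the 6 mice, at 11.5 cM or less and under 3.4. These were *C1qa* (2.66), *Lyz2* (2.41), *Clec4f* (2.30), the lead *Csf1r* probe set (1.94) and another of *Csf1r* (2.60). With the principal components, *C1qa* (2.21) and the lead *Csf1r* probe set (2.13) peaked there. These genes vary together with *Cd5l*, and a shared locus was not tested. The profile, which includes both genes, gave 2.15 on Chromosome 15 at 11.5 cM.

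*Cd68* had 2.87 on Chromosome 8 at 45 cM. The 18 mice homozygous for A had a mean of 7.23 ± 0.315 (SD), above the 19 heterozygous mice at 6.94 ± 0.316 (SD) and the 23 homozygous for B at 6.94 ± 0.276 (SD), and the groups overlapped. With the first principal components as covariates it reached 3.42 at the same position, without the 6 mice it had 2.51, and when sex entered a Haley-Knott fit its peak moved to Chromosome 10 with 2.57. The second *Marco* probe set had 2.87 on Chromosome 17 and the lead *Marco* probe set 2.32 on Chromosome 8, so that the probe sets of this gene did not share a peak. Nor did the 3 *Csf1r* probe sets, which peaked on Chromosomes 4, 3 and 13 with 2.22, 1.85 and 2.40. *Clec4f* peaked on its own Chromosome 6 at 40.5 cM with 2.63, but on Chromosome 15 without the 6 mice and on Chromosome 4 when sex entered a Haley-Knott fit. At 40.5 cM 36 mice were homozygous for A (8.11 ± 0.189, SD), 23 heterozygous (8.36 ± 0.335, SD) and only 1 homozygous for B. *Lyz2* scored 2.48 on Chromosome 18 and 2.34 on its own Chromosome 10, which held its peak in 4 alternatives. The other genes scored at most 1.97 on their own chromosome, and *Vsig4*, on Chromosome X, could not be scored there because no X marker was typed. Of the 45 probe sets of further macrophage genes, 7 reached 3.4, a share near the 15.8% of all probe sets.

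**Figure D5:**
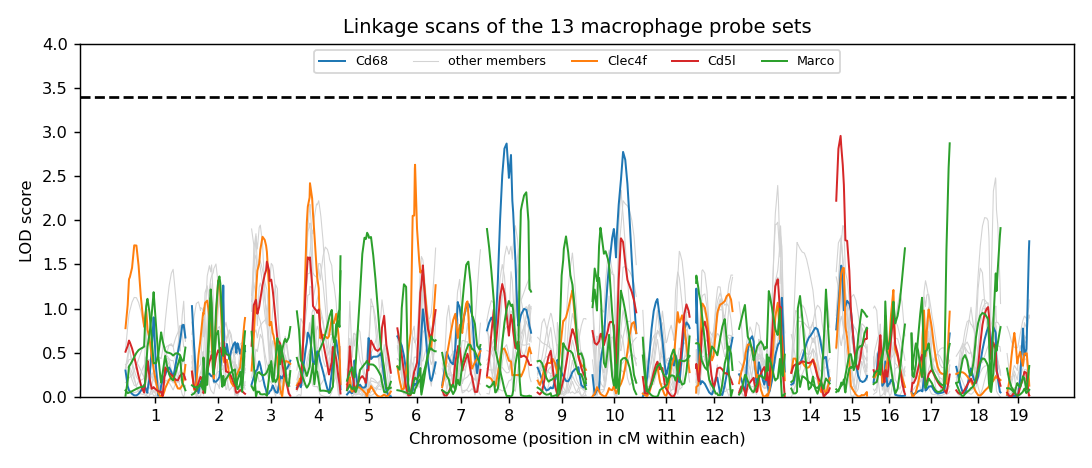
LOD scores of the 13 macrophage probe sets along the 19 autosomes, from interval mapping; *Cd5l*, *Cd68*, *Clec4f* and *Marco* (2 probe sets) are coloured, the others grey, and the dashed line is the threshold of 3.4. The highest point is *Cd5l* on Chromosome 15 (2.96), and no curve crosses the threshold.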

How the data were processed

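Liver RNA of 60 mice was read on MOE430A and MOE430B arrays. The authors obtained cell intensities from MAS5.0 and ran RMA on them, giving the log2 levels deposited here, in which low signals are compressed. The array types were normalized apart, and no level was compared between probe sets except to choose the lead of a gene. The version of RMA was not stated in what was read here. Phenotypes, sex and genotype calls were used as deposited in other units (mg/dl, g, ng/ml, mg/g tissue, letters), with insulin on a log10 scale, turned to log10 here from the deposited values. Precision is limited by how many mice were measured.

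Sex and phenotype relations were fitted across all 45037 probe sets with limma 3.58.1 in R 4.3.3, the phenotypes with sex as a term, with Benjamini-Hochberg adjustment at 0.05. Relations between genes were fitted likewise with each lead probe set as the predictor. Single correlations were tested with 100000 two-sided permutations. Interval mapping by EM, after R/qtl as the methods name it, used a genotyping error of 0.0001, 5.0 cM steps and a LOD threshold of 3.4 (Python 3.11.15, numpy 2.4.6, numba 0.67.0). Array apart meant a median correlation more than 3 MAD under the median. The fits and the scan were tested on simulated data. The members and the 19 gene lists were chosen with earlier results of these data known. Named were all members, the 15 highest and 5 lowest *r* with the profile, the 3 highest and the lowest of each list where stated, and the closest non-member of each lead. RT-qPCR values and further F2 mice without arrays were not used here.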

Additional observations from a re-analysis of the deposited data

How the results depend on the processing

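Over 13 results and 90 alternatives, 87 kept the direction and side of the threshold or stayed within the spread. Most of the 90 were counts of called macrophage probe sets, and for most phenotypes few or no probe sets passed at all. A count of 0 could hardly change there, so that the 87 says little about how firm the results are. The count of macrophage probe sets called for sex and for each phenotype was 0 under every alternative run, which were the mice left out, the filter at a log2 level of 6, the principal components, no sex term, the other phenotype scale, ranks and the Wilcoxon test. The mean pairwise *r* of 0.53 was 0.45 by Spearman's rho, and lay between 0.48 and 0.56 in the other alternatives. The count of pairs at 0.7 or greater was 7, and 7 or 8 in the alternatives. For linkage the count of 0 became 1 without the mice with an array apart (*Cd5l*, LOD score 3.95) and 1 with the first principal components as covariates (*Cd68*, 3.42). The cause was not tested. In the main scan 15.8% of all probe sets reached 3.4, so 1 of 13 is not above that share. The share under these alternatives is not given here. The authors put the false discovery rate at a LOD score of 3.4 at 0.48. The linkage count stayed 0 under Haley-Knott regression alone, after adding sex, on the smaller marker table and when mice 343 and 474 were left out. The median sex difference of the 13 probe sets was -0.04 and 0.02 without the mice with an array apart. No paired analysis was possible because the groups that share mouse numbers are the array types, which were normalized apart, and no result was a test of one against the other. Of the 100 probe sets on both, the MOE430A value was used. The number of mice and low signal on some probe sets limit what could be seen.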
